A study of Mus musculus with 9 samples.

Results

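The genes described are those of the proteasome in phagocytes sorted from the peritoneal wall of mice. They were taken from the deposited table as every symbol that starts with Psma, Psmb, Psmc, Psmd, Psme, Psmf or Psmg followed by a digit, leaving out pseudogene symbols. This gave 50 genes of 28764 symbols. Of the 50, 46 had at least 1 TPM (transcript abundance corrected for length and scaled to a common total) in at least 3 of 9 libraries and were tested. The other 4 were Psma8, Psmb11, Psmc3ip and Psmg3. Psmc3ip is caught by its name only, since it encodes a meiotic recombination factor and no part of the proteasome.

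All mice were F1 Cx3cr1gfp/+ Ccr2rfp/+ animals, which carry a green reporter in 1 allele of the fractalkine receptor gene and a red reporter in 1 allele of the CCR2 chemokine receptor gene. Every group therefore shares both reporter alleles, the 50 µg of labelled dextran injected the day before, perfusion, 20 minutes of enzyme digestion and a caspase inhibitor in the buffers. The populations sorted, 3 in all, were CD11b+ Ly6G- cells. Double-negative cells lacked both reporters and MHC class II and contained dextran; the labels call them most of the sessile resident macrophages, and they filled 85 to 90% of that gate. CCR2-RFP cells, called migratory tissue monocytes in the labels, bore MHC class II and filled 10 to 15%. CX3CR1-GFP cells, also called sessile resident macrophages, bore MHC class II and filled 0.5 to 1.5%. Each population had 3 libraries from the sorts called 1, 2A and 2B, and values are given in that order. The labels give no age or sex.

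The proteasome is the large protease of the cytosol and nucleus that cuts proteins marked with ubiquitin into peptides. Its 20S core is a barrel of alpha subunits, which gate the entrance, and beta subunits, of which Psmb5, Psmb6 and Psmb7 carry the active sites. In immune cells and after interferon these are replaced in newly built particles by Psmb8, Psmb9 and Psmb10, which gives the immunoproteasome, known for producing peptides that fit MHC class I molecules. The 19S cap unfolds substrates with its Psmc ATPases and binds and strips ubiquitin with Psmd subunits. The PA28 ring of Psme1 and Psme2 is another cap that opens the barrel.

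The gate genes matched the titles of the libraries. Ccr2 was listed at 95.4 to 115 TPM in the 3 CCR2-RFP libraries and at no more than 6.68 TPM in the 6 others, and Cx3cr1 at 4.13 to 16.4 TPM in the CX3CR1-GFP libraries and at 0 in the others. Replicate libraries correlated at 0.904 to 0.964 across genes. Over all listed genes, TPM added up to 356787 to 382828 in CCR2-RFP libraries, 324050 to 357087 in double-negative and 278579 to 301604 in CX3CR1-GFP cells. No read counts are in the table, so depth is unknown. Of 8 tested macrophage and monocyte genes, Csf1r, Adgre1, Mertk and Fcgr1 were called lower in CCR2-RFP cells than in double-negative ones, and Lyz2, Itgam and Ptprc higher. Csf1r was at 61.2 to 67.7 TPM in CCR2-RFP, 174 to 229 TPM in double-negative and 198 to 212 TPM in CX3CR1-GFP libraries. Of 8 dendritic cell markers, 7 were called higher in CCR2-RFP cells than in double-negative ones, with a summed level of 135 to 190 TPM in CCR2-RFP, 38.4 to 76.3 TPM in double-negative and 22.4 to 27.1 TPM in CX3CR1-GFP libraries. Of all genes tested, 14.9% were called higher in the first of these populations against the second. The marker without a call was Zbtb46, with a log2 fold change of -0.16. It was at 1.57 to 2.50 TPM in CCR2-RFP libraries and 1.95 to 2.98 TPM in double-negative libraries. Clec9a was at 3.12 to 6.47 TPM in CCR2-RFP libraries. It was at 0 in 4 of the 6 others, but at 1.39 TPM in double-negative 2B. Xcr1 was low throughout, at 1.22 to 1.63 TPM in CCR2-RFP libraries and no more than 0.0826 TPM in the 6 others. Outside CCR2-RFP libraries, Flt3 reached 1 TPM only in CX3CR1-GFP 2B (1.08 TPM). Xcr1, Flt3 and Clec9a thus passed the filter through their CCR2-RFP levels. Their calls add no support beside the share of all genes. Summed skeletal muscle mRNA was 726 TPM in CCR2-RFP 2A and 1259 TPM in CX3CR1-GFP 2A, against 31.7 to 271 TPM in the other 7 libraries. Fibroblast genes summed to 10.3 to 108 TPM in double-negative, 12.6 to 60.4 TPM in CCR2-RFP and 39.3 to 125 TPM in CX3CR1-GFP libraries. Of 5 tested, Dcn was called higher in CX3CR1-GFP than in CCR2-RFP cells, beside 8.96% of all genes. The B cell gene Cd79b was at 1.44 to 3.54 TPM in CX3CR1-GFP libraries and no more than 0.597 TPM elsewhere. Other B cell genes stayed at or below 0.195 TPM. Ribosomal protein genes summed to 16681 ± 949 TPM (SD, n = 3) in CCR2-RFP cells, 9442 ± 1307 TPM in double-negative cells and 8335 ± 280 in CX3CR1-GFP cells, and mitochondrially encoded mRNA to 9282 ± 1553, 16478 ± 3341 and 12685 ± 3369 TPM. The part of these markers and sums in the proteasome results was not tested.

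The stretches around the transcription starts of 5 genes are shown. They are 2 of the 3 pairs of exchanged catalytic subunits and the PA28 gene Psme1. Psmb10 and the other PA28 gene, Psme2, whose windows held no match to any motif searched, are not shown. Psmb7, the partner of Psmb10, had no window. The stretches are RefSeq sequences of build GRCm38.p6, from 250 bases before to 50 after the start, 5′ to 3′ on the strand of the gene, with matches to the first 3 motifs below in capitals.

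Psmb8 (chr17:34197945-34198244, plus strand): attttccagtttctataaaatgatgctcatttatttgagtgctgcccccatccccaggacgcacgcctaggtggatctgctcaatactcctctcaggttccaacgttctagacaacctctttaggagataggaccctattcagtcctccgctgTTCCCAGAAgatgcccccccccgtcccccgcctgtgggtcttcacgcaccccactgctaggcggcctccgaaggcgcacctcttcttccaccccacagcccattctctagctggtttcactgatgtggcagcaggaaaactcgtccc
Psmb5 (chr14:54617946-54618245, minus strand): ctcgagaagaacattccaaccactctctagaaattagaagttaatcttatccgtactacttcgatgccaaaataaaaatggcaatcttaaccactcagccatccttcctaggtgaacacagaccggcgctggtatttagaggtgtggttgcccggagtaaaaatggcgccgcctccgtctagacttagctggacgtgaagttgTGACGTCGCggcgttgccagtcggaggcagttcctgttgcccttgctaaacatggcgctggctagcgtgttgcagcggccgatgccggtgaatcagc
Psmb9 (chr17:34187281-34187580, minus strand): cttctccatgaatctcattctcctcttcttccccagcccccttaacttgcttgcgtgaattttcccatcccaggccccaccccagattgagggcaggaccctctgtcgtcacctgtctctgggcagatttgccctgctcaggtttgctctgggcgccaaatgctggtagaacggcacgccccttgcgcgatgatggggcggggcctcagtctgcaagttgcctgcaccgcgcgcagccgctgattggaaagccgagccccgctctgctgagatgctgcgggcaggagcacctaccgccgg
Psmb6 (chr11:70525107-70525406, plus strand): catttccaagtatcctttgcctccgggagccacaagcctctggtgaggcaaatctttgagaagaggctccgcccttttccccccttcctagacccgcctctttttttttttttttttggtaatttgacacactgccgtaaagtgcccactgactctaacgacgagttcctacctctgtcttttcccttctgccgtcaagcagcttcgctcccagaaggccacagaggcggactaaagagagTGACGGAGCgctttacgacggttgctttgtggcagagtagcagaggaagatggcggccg
Psme1 (chr14:55578244-55578543, plus strand): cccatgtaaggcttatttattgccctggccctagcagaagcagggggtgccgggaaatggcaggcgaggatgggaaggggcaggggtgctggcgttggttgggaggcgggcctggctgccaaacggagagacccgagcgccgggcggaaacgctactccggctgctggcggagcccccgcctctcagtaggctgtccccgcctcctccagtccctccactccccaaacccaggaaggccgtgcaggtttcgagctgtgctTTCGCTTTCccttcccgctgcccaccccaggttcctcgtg

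In Psmb8 the capitals are TTCCCAGAA, a match to the interferon-gamma activation site TTCNNNGAA, whose first base lies at -97 counted from the start as 0. In Psmb5 and Psmb6 they are TGACGTCGC at -47 and TGACGGAGC at -9, matches to the antioxidant response core TGACNNNGC. In Psme1 they are TTCGCTTTC at 10, a match on the other strand to the interferon response core GAAANNGAA. Psmb9 had none of these 3 motifs in its window, and a CCAAT box on the other strand (ATTGG at -8) left in lower case. Motifs were searched on both strands and matches of different motifs may overlap. Promoters were found for 42 of the 50 genes (45 windows). The interferon response core was in 7 of the 45 windows (15.6%) and in 8.56% of all 32851 promoters of the same length. The activation site was in 3 windows (6.67%, Psmd2, Psmg1 and Psmb8) against 8.3% of all promoters. The antioxidant core was in 6 windows (13.3%) against 12.4%, and the plain CCAAT box in 15 (33.3%) against 37.4%. A match is a stretch of letters only, and windows without one may hold sites further away.

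Proteasome mRNA was highest in CCR2-RFP cells. The 50 genes together summed to 697 ± 36.1 TPM (SD, n = 3) in CCR2-RFP, 413 ± 30.2 TPM in double-negative and 368 ± 50.3 TPM in CX3CR1-GFP cells. All listed genes also summed to less in CX3CR1-GFP than in double-negative cells (286300 against 341340 TPM on average). The order of these 2 populations may therefore depend on scaling. In bulk libraries a larger share of cells with high levels and a higher level per cell cannot be told apart. Against double-negative cells, 17 of 46 genes (37%) were higher in CCR2-RFP cells and 0 lower at adjusted p below 0.05 (limma, Benjamini-Hochberg over 10136 genes), beside 14.9% higher and 9.88% lower among all genes tested. The fold change was above zero for 44 of 46, with a median log2 fold change of 0.57 on the log2(TPM + 1) scale used for every fold change here, where all genes had a median of 0.09. The exceptions were Psme2b and Psmf1. Psma4 moved most, followed by Psmb8, Psmb3, Psmd14, Psmb1 and Psma3.

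Few genes of any kind were called between CX3CR1-GFP and double-negative cells. Of the 46 proteasome genes 0 were called by limma, beside 1.16% higher and 1.61% lower among all genes. The count is therefore near the share of all genes. At an unadjusted p below 0.05 there were 5 (Psma4, Psma7, Psmb2, Psmb9 and Psmd14), 10.9% of the genes, where all genes gave 15%. The smallest adjusted p was 0.0942. Fold changes were above zero for 13 and below zero for 33, with a median of -0.19 against -0.03 over all genes. Within sorts the median difference of the proteasome genes was -0.15 in sort 1, 0.10 in sort 2A and -0.37 in sort 2B, so its sign was not the same in each.

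Against CCR2-RFP cells, 24 of 46 genes (52.2%) were lower in CX3CR1-GFP cells and 0 higher, beside 17.3% lower and 8.96% higher among all genes. The median log2 fold change was -0.71, against -0.11 over all genes. This comparison and the first share the CCR2-RFP libraries, so their calls are not independent. Of the genes called, 16 were called in both, Psmd2 only against double-negative cells and 8 only against CX3CR1-GFP cells, and 21 in neither. All 3 CCR2-RFP libraries stood above all 6 other libraries for 24 of the 46 genes, beside 18.3% of all genes. The highest library was a CCR2-RFP library for 37 genes (80.4%, beside 45.7% of all genes), and the lowest was a CX3CR1-GFP library for 40 (87.0%, beside 41.1%). CX3CR1-GFP 2B alone was lowest for 22 (47.8%, beside 11.4%). Compared within each sort, CCR2-RFP was above double-negative for 38, 44 and 38 of the 46 genes in sorts 1, 2A and 2B, beside 51.9%, 57.6% and 56.8% of all genes.

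**Figure D1:**
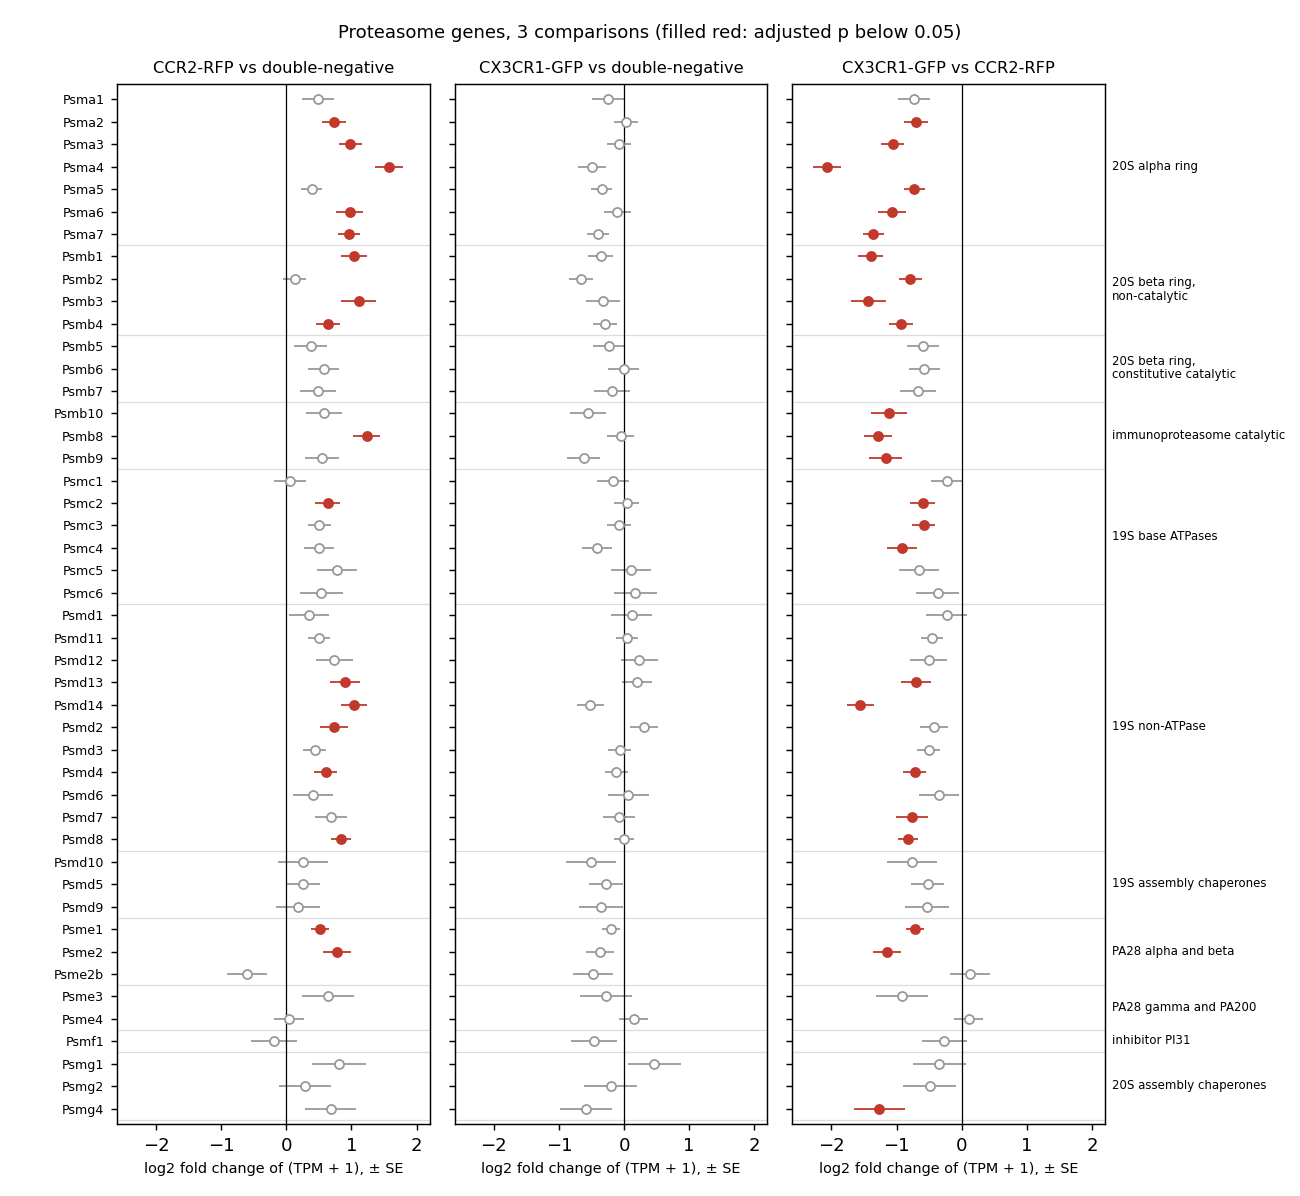
Log2 fold change of log2(TPM + 1) with its standard error for the 46 tested genes, in 3 comparisons, grouped by part of the proteasome; filled red points have an adjusted p below 0.05. The left panel holds 17 red points, the middle panel 0 and the right panel 24.

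The count of calls depended on single libraries and on scaling. Against double-negative cells it fell from 17 to 11 without CCR2-RFP 1, to 9 without double-negative 2A and to 8 without CCR2-RFP 2B, and to 11 without the 3 sort 2A libraries, which hold both libraries rich in muscle mRNA. The 9 genes not called without CCR2-RFP 2B were Psma2, Psmb3, Psmb4, Psmc2, Psmd2, Psmd4, Psmd13, Psme1 and Psme2. With TPM rescaled after removing mitochondrial and ribosomal protein genes it was 10, and 10 in place of 24 for CX3CR1-GFP against CCR2-RFP, where this scaling moved the median of all genes from -0.11 to 0.19. The rescaling also set all libraries to the same total. Before it, listed TPM averaged 369310 in CCR2-RFP, 341340 in double-negative and 286300 in CX3CR1-GFP cells. Which of the 2 steps changed the calls was not tested.

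All 3 immunoproteasome genes were called lower in CX3CR1-GFP than in CCR2-RFP cells, beside 17.3% of all genes. Psmb8 was also called higher in CCR2-RFP cells than in double-negative ones, beside 14.9% of all genes. Psmb8 (mm10 chr17:34197721-34201454, plus strand, chymotrypsin-like site) was listed at 6.70, 7.77 and 7.17 TPM in double-negative, 18.3, 15.5 and 21.6 TPM in CCR2-RFP and 6.42, 9.498 and 5.39 TPM in CX3CR1-GFP libraries. Every CCR2-RFP library lay above every other one. Psmb8 rose by 1.23 on the log2 scale (SE 0.21, adjusted p = 0.00163) from double-negative to CCR2-RFP cells and was lower by -1.28 (SE 0.21, adjusted p = 0.00134) in CX3CR1-GFP than in CCR2-RFP cells. From double-negative to CX3CR1-GFP cells the log2 difference was -0.05 (SE 0.21, adjusted p = 0.941). Within the sorts, the ratio of Psmb8 in CCR2-RFP to double-negative cells was 2.73, 1.99 and 3.01. With only the sort 2A and 2B libraries the adjusted p for Psmb8 was 0.0503.

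Psmb9 (mm10 chr17:34181987-34187764, minus strand), the caspase-like position's replacement, was listed at 2.40, 4.56 and 3.88 TPM in double-negative, 4.63, 7.998 and 4.68 TPM in CCR2-RFP and 2.26, 1.67 and 1.92 TPM in CX3CR1-GFP libraries. The CX3CR1-GFP libraries were the lowest 3 of the 9 and the CCR2-RFP libraries the highest 3. Psmb9 was called lower in CX3CR1-GFP than in CCR2-RFP cells (log2 fold change -1.17, SE 0.26, adjusted p = 0.00743), a call lost without the 3 sort 2A libraries (adjusted p = 0.0611). The difference of 0.55 from double-negative to CCR2-RFP cells did not pass (adjusted p = 0.160).

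Psmb10 (mm10 chr8:105935735-105938444, minus strand), the trypsin-like position's replacement, was listed at 4.23, 4.38 and 3.38 TPM in double-negative, 5.49, 5.68 and 8.39 TPM in CCR2-RFP and 2.03, 4.11 and 1.55 TPM in CX3CR1-GFP libraries. CCR2-RFP libraries again lay above all others. Psmb10 was called lower in CX3CR1-GFP than in CCR2-RFP cells (log2 fold change -1.12, SE 0.28, adjusted p = 0.0129). This call was lost in 3 of 23 alternative settings. They were leaving out CCR2-RFP 2B (adjusted p = 0.0554), rescaling without mitochondrial and ribosomal protein genes, and using only the sort 2A and 2B libraries. Against double-negative cells the 0.58 by which CCR2-RFP was above did not pass (adjusted p = 0.168).

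The constitutive catalytic genes were called in none of the 3 comparisons. Psmb5, the chymotrypsin-like subunit, was listed at 3.72, 2.43 and 5.24 TPM in double-negative, 3.87, 5.77 and 5.63 TPM in CCR2-RFP and 3.27, 3.05 and 2.65 TPM in CX3CR1-GFP libraries. Psmb6, the caspase-like subunit, was at 4.17, 5.75 and 5.80 TPM, 6.83, 9.30 and 8.66 TPM, and 3.95, 7.60 and 4.53 TPM in the same populations. Psmb7, the trypsin-like subunit, was at 11.1, 7.61 and 8.52 TPM, 14.7, 13.2 and 11.1 TPM, and 11.4, 8.61 and 4.64 TPM. Their log2 fold changes from double-negative to CCR2-RFP cells were 0.37, 0.57 and 0.48, with adjusted p of 0.328, 0.117 and 0.255. In CX3CR1-GFP against CCR2-RFP cells they were -0.60, -0.58 and -0.67, with adjusted p of 0.103, 0.107 and 0.105. Psmb6 passed in the last comparison without CX3CR1-GFP 2A (adjusted p = 0.0210) and Psmb7 without CX3CR1-GFP 1 (adjusted p = 0.0358).

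**Figure D2:**
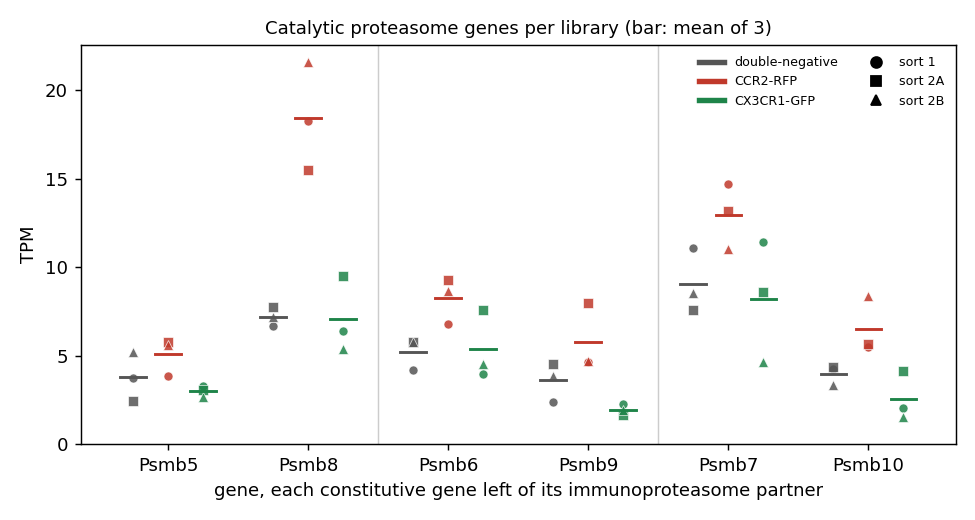
TPM of the 6 catalytic genes in each of 9 libraries, by population (colour) and sort (symbol), with a bar at the mean of 3 libraries. The CCR2-RFP libraries of Psmb8 sit between 15.5 and 21.6 TPM, above the 6 others, while CCR2-RFP and double-negative libraries overlap for Psmb5 and Psmb7.

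Whether the immunoproteasome genes moved more than their partners was tested on the log2 ratio within each pair, over 1680 assignments of the 9 libraries. Psmb8 exceeded Psmb5 in 9 of 9 libraries and made up 66.1 ± 9.33% of the pair's TPM (SD, n = 3) in double-negative cells, 78.2 ± 4.92% in CCR2-RFP cells and 69.7 ± 5.23% in CX3CR1-GFP cells. The share in double-negative 2A (76.2%) lay inside the CCR2-RFP range of 72.9 to 82.5%. The populations did not differ by an exact permutation test of the F statistic (p = 0.143, 0.214 adjusted over 3 pairs). Without double-negative 2A the exact p was 0.0429.

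Psmb9 stayed below Psmb6 in all 9 libraries, at 40.3 ± 3.84% of the pair (SD, n = 3) in double-negative cells, 40.6 ± 5.58% in CCR2-RFP cells and 28.1 ± 9.29% in CX3CR1-GFP cells. CX3CR1-GFP 2A had the lowest share of 18.1%. The exact permutation p was 0.129 (0.214 adjusted over 3 pairs), and 0.0393 without CX3CR1-GFP 1. Psmb10 was likewise below Psmb7 in all 9 libraries, with shares of 30.8 ± 4.93%, 33.5 ± 8.50% and 24.2 ± 8.66%, and an exact permutation p of 0.539. Between single populations, 3 against 3 libraries cannot give an exact two-sided p below 0.10, and the smallest seen in the 3 pairs was 0.20. Over the 6 genes, the immunoproteasome share was 45.0 ± 5.55% in double-negative cells, 53.8 ± 3.58% in CCR2-RFP cells and 41.2 ± 4.14% in CX3CR1-GFP cells, with double-negative 2A at 51.4% inside the CCR2-RFP range of 50.8 to 57.8%. The different calls for single genes of a pair are therefore not shown to be a different response of the pair's members.

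**Figure D3:**
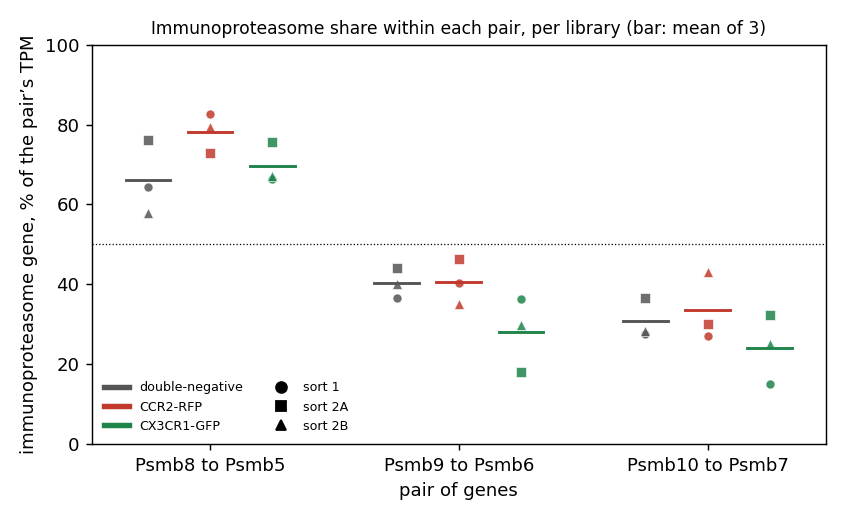
Percent of each pair's TPM held by the immunoproteasome gene in each of 9 libraries, by population (colour) and sort (symbol), with a bar at the mean of 3; the dotted line marks equal levels. Psmb8 lies above the line in 9 libraries, and Psmb9 and Psmb10 lie below it in 9.

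Most of the alpha ring passed. Of its 7 tested genes, 5 were called higher in CCR2-RFP cells than in double-negative ones and 6 lower in CX3CR1-GFP than in CCR2-RFP cells, with medians of 0.96 and -1.06. Of all genes, 14.9% were called higher in the first of these comparisons and 17.3% lower in the second. Psma4 (mm10 chr9:54950790-54958030, plus strand) was listed at 17.9, 15.7 and 21.7 TPM in double-negative, 59.5, 51.4 and 59.5 TPM in CCR2-RFP and 16.5, 8.999 and 13.8 TPM in CX3CR1-GFP libraries. The lowest CCR2-RFP library was above the highest of the others by more than the whole range of either other population. Its log2 fold change was 1.58 (SE 0.21, adjusted p = 0.00036) from double-negative to CCR2-RFP cells and -2.07 (SE 0.21, adjusted p = 7.09e-05) from CCR2-RFP to CX3CR1-GFP cells.

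Psma3, another alpha subunit, was at 18.1, 18.6 and 21.7 TPM, 37.0 to 42.8 TPM and 13.9 to 22.2 TPM in double-negative, CCR2-RFP and CX3CR1-GFP libraries. It rose by 0.98 (SE 0.18, adjusted p = 0.00265) in CCR2-RFP over double-negative cells. Psma7 was at 17.5, 16.0 and 23.6 TPM in double-negative, 41.2, 34.5 and 37.0 TPM in CCR2-RFP and 14.0, 14.1 and 14.0 TPM in CX3CR1-GFP libraries. The CX3CR1-GFP libraries were all below the lowest double-negative library, although that difference was not called (log2 fold change -0.40, adjusted p = 0.285). Psma1 was called in neither comparison with CCR2-RFP cells, at 0.49 (adjusted p = 0.187) and -0.73 (adjusted p = 0.0506). Psma8, a testis form of an alpha subunit, was at no more than 0.667 TPM in any library.

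Of the 4 beta subunits without an active site, 3 were called higher in CCR2-RFP cells than in double-negative ones, beside 14.9% of all genes. All 4 were called lower in CX3CR1-GFP than in CCR2-RFP cells, beside 17.3% of all genes. Psmb1 was listed at 15.6, 14.3 and 20.7 TPM in double-negative, 37.4, 27.8 and 42.2 TPM in CCR2-RFP and 12.4, 13.8 and 12.05 TPM in CX3CR1-GFP libraries, without overlap of CCR2-RFP with the others. Its log2 fold changes in these comparisons were 1.04 (SE 0.19, adjusted p = 0.00275) and -1.40 (SE 0.19, adjusted p = 0.000477). Psmb3 was at 15.8, 13.7 and 9.97 TPM, 36.1, 18.6 and 36.4 TPM, and 10.9, 11.1 and 8.62 TPM. CCR2-RFP 2A lay close to the double-negative libraries, and the rise of 1.11 (SE 0.27, adjusted p = 0.0114) lost its call without CCR2-RFP 1 (adjusted p = 0.0507) or 2B (adjusted p = 0.0528). Psmb2 stood apart, with 20.0 to 26.4 TPM in double-negative and 23.1 to 30.5 TPM in CCR2-RFP cells (log2 fold change 0.13, adjusted p = 0.666) and 12.5 to 17.2 TPM in CX3CR1-GFP cells (-0.79 against CCR2-RFP, adjusted p = 0.00876). Psmb11, the thymus form of the catalytic subunit, was at no more than 0.0969 TPM.

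**Figure D4:**
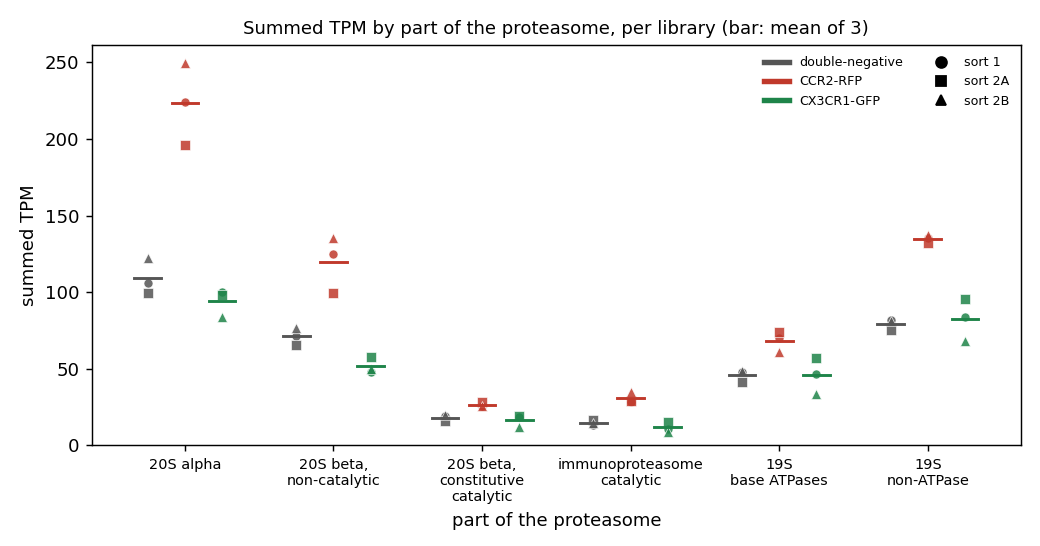
Summed TPM of the genes of 6 parts of the proteasome in each of 9 libraries, by population (colour) and sort (symbol), with a bar at the mean of 3. The alpha ring sums to 223 TPM on average in CCR2-RFP against 110 in double-negative and 94.0 in CX3CR1-GFP cells.

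In the 19S cap, 6 of 17 subunit genes were called higher in CCR2-RFP cells than in double-negative ones, beside 14.9% of all genes. The cap had 8 genes called lower in CX3CR1-GFP than in CCR2-RFP cells, beside 17.3% of all genes. Its 11 non-ATPase genes summed to 135 ± 2.64 TPM (SD, n = 3) in CCR2-RFP, 79.3 ± 3.73 TPM in double-negative and 82.3 ± 13.6 TPM in CX3CR1-GFP cells. Of them 5 were called higher in CCR2-RFP cells than in double-negative ones (Psmd14, Psmd13, Psmd8, Psmd2 and Psmd4) and 5 lower in CX3CR1-GFP than in CCR2-RFP cells (Psmd14, Psmd8, Psmd7, Psmd4 and Psmd13). Psmd14, the deubiquitinase that removes the ubiquitin chain as a substrate enters, was at 9.74, 6.13 and 8.61 TPM in double-negative, 18.9, 15.1 and 18.98 TPM in CCR2-RFP and 5.14, 4.52 and 6.44 TPM in CX3CR1-GFP libraries. CCR2-RFP libraries lay above all others, with log2 fold changes of 1.04 (SE 0.20, adjusted p = 0.00375) over double-negative and -1.56 (SE 0.20, adjusted p = 0.000338) in CX3CR1-GFP against CCR2-RFP cells. The ubiquitin receptor Psmd4 rose by 0.60 (adjusted p = 0.0306) and the scaffold subunit Psmd2 by 0.74 (adjusted p = 0.0315) in CCR2-RFP over double-negative cells. These calls were lost in 12 and 10 of 23 alternative settings. The other scaffold subunit, Psmd1, had 0.35 (adjusted p = 0.482), and its difference from Psmd2 was not tested.

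Of the 6 ATPases, Psmc2 was called higher in CCR2-RFP cells than in double-negative ones (0.64, adjusted p = 0.0338), beside 14.9% of all genes. Psmc4, Psmc2 and Psmc3 were called lower in CX3CR1-GFP than in CCR2-RFP cells, beside 17.3% of all genes. With the sort as a block, Psmc2 lost both calls (adjusted p = 0.0532 and 0.0635) and Psmc5 gained the first (adjusted p = 0.0460). The same block ended the second call of Psmd13 (adjusted p = 0.0556) and Psmg4 (adjusted p = 0.0637). Psmc3 and Psmd7 lost their calls in CX3CR1-GFP against CCR2-RFP cells in 13 and 15 of 23 alternative settings, without CCR2-RFP 2A among them (adjusted p = 0.122 for each), and Psmc4 in 6. Psmc1 had the smallest change over double-negative cells, 0.06 (adjusted p = 0.909). The count of 1 call in 6 genes over double-negative cells was near the share of all genes. Means of the 6 genes in CCR2-RFP cells ran from 6.17 TPM for Psmc1 to 16.1 TPM for Psmc6.

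PA28, the cap induced by interferon, was read from Psme1 and Psme2. Psme1 (mm10 chr14:55578123-55581529, plus strand) was listed at 15.3, 15.9 and 15.3 TPM in double-negative, 25.6, 20.9 and 21.6 TPM in CCR2-RFP and 14.4, 13.3 and 12.5 TPM in CX3CR1-GFP libraries. The 3 populations did not overlap. Its log2 fold change was 0.52 (SE 0.14, adjusted p = 0.0231) from double-negative to CCR2-RFP cells and -0.72 (SE 0.14, adjusted p = 0.00419) in CX3CR1-GFP against CCR2-RFP cells. The first call was lost on leaving out double-negative 1 (adjusted p = 0.0715) or CCR2-RFP 1 (adjusted p = 0.0933), among other settings.

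Psme2 (mm10 chr14:55587441-55591113, minus strand) was at 6.36, 4.53 and 4.87 TPM in double-negative, 7.57, 10.7 and 11.1 TPM in CCR2-RFP and 4.67, 3.80 and 3.07 TPM in CX3CR1-GFP libraries, with log2 fold changes of 0.78 (adjusted p = 0.0222) and -1.15 (adjusted p = 0.00282). A near copy, Psme2b (mm10 chr11:48945354-48946190), is 99.4% identical to it over 794 aligned bases of transcript, so reads may be divided between the pair. Psme2b was at 10.5, 9.59 and 10.9 TPM in double-negative, 6.73, 5.98 and 6.68 TPM in CCR2-RFP and 11.9, 3.69 and 7.98 TPM in CX3CR1-GFP libraries, opposite in direction between the first 2 populations (-0.60, adjusted p = 0.195, and 0.0304 without CX3CR1-GFP 2A). Summed, the pair was at 15.6 ± 1.39 TPM (SD, n = 3), 16.3 ± 1.77 TPM and 11.7 ± 4.55 TPM. In a fit added after the data were seen, the sum gave 0.06 (adjusted p = 0.903) for CCR2-RFP over double-negative cells and -0.50 (adjusted p = 0.156) for CX3CR1-GFP against CCR2-RFP cells. Neither call on Psme2 is therefore held by the sum.

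**Figure D5:**
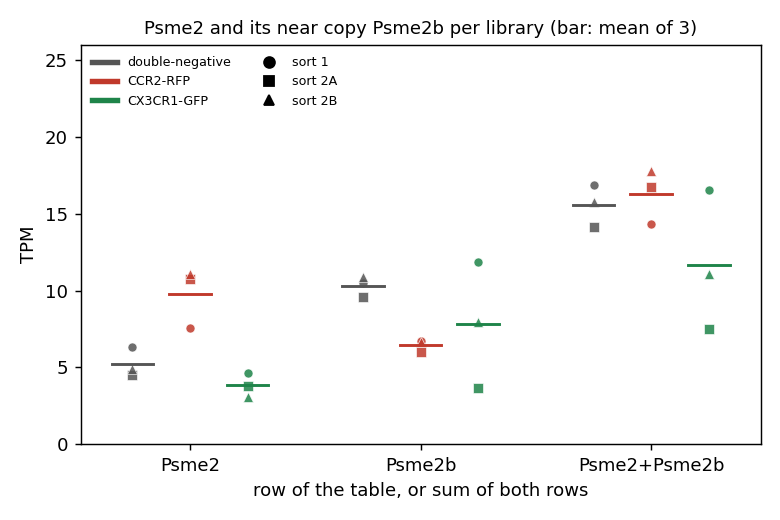
TPM of Psme2, of its near copy Psme2b and of their sum in each of 9 libraries, by population (colour) and sort (symbol), with a bar at the mean of 3. CCR2-RFP libraries are highest for Psme2 and lie at 14.3 to 17.8 TPM for the sum, inside or near the double-negative range of 14.1 to 16.9 TPM.

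Other caps, the inhibitor and assembly factors gave few calls. Psme3, the nuclear PA28 gamma, ranged from 3.25 to 17.01 TPM with every population overlapping. Psme4, the PA200 cap, had log2 fold changes of 0.04 and 0.11 in the comparisons with CCR2-RFP cells (adjusted p = 0.926 and 0.766). Psmf1, the PI31 protein first described as an inhibitor, was at 0.869 to 5.03 TPM without a call. Of the 20S assembly chaperones, Psmg4 was called lower in CX3CR1-GFP than in CCR2-RFP cells (-1.26, SE 0.40, adjusted p = 0.0390), but at 3.09, 9.16 and 8.80 TPM in CCR2-RFP the sort 1 library lay inside the double-negative range of 2.59 to 6.28 TPM. Without CX3CR1-GFP 2A the adjusted p of Psmg4 was 0.109. The 3 chaperones of the 19S base (Psmd5, Psmd9 and Psmd10) had no call.

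The 17 genes called higher in CCR2-RFP cells had a median double-negative level of 14.9 TPM, and the 29 not called 5.93 TPM. Within roles, levels on this per-length scale differed widely. Among alpha genes, the mean in double-negative cells ran from 8.40 TPM for Psma5 to 19.4 TPM for Psma3, and among the constitutive catalytic genes from 3.80 TPM for Psmb5 to 9.08 TPM for Psmb7.

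Parts of the pathway whose symbols do not start with Psm were also counted, beside the 14.9% of all genes called higher in the first comparison and the 17.3% called lower in the last. Of 13 tested partners, 3 were called higher in CCR2-RFP cells than in double-negative ones: Usp14, the deubiquitinase that docks on the cap (0.76, adjusted p = 0.0298), Akirin2, which carries proteasomes into the nucleus (0.59, adjusted p = 0.0402), and Pomp, the chaperone that completes the core (0.69, adjusted p = 0.0478). In CX3CR1-GFP against CCR2-RFP cells 7 of the 13 were lower, with Rad23b, Sem1, Usp14 and Pomp having the smallest p. Rad23b, a shuttle for ubiquitinated proteins, was at a mean of 25.8 TPM in double-negative, 23.6 TPM in CCR2-RFP and 7.88 TPM in CX3CR1-GFP cells, and it was the partner called in CX3CR1-GFP against double-negative cells (-1.57, adjusted p = 0.00243).

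From double-negative to CCR2-RFP cells, the fold changes of 6 regulators of proteasome genes were above zero for 4 and below zero for 2. Those below zero, Foxo3 (-1.01, adjusted p = 0.00174) and Nfya (-0.82, adjusted p = 0.0423), were called lower, beside 9.88% of all genes. Of the 6, 0 were called higher, beside 14.9% of all genes. Against CCR2-RFP cells, Foxo3 was called higher in CX3CR1-GFP cells (0.87, adjusted p = 0.00417), beside 8.96% of all genes. Nfe2l1, the factor that raises proteasome genes when activity falls, had 0.04 (adjusted p = 0.939) in CCR2-RFP over double-negative cells. Rps27a, which encodes ubiquitin joined to a ribosomal protein, was higher (1.07, adjusted p = 0.00110).

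Genes that act after or upstream of the immunoproteasome in MHC class I presentation gave calls in both directions. Of 7 peptide route genes, Pdia3 (0.54, adjusted p = 0.0185) and Calr (0.52, adjusted p = 0.0379), chaperones of class I loading, were higher in CCR2-RFP cells than in double-negative ones, and B2m, the class I light chain, was lower (-0.62, adjusted p = 0.00713). Of 10 interferon and class I regulators, Irf8 (-1.83, adjusted p = 0.000406) and Ifnar2 (-0.61, adjusted p = 0.00934) were lower and 0 higher. Fold changes were below zero for 8 of these 10. Irf1, which drives Psmb8, Psmb9 and Psmb10 after interferon, had -0.12 (adjusted p = 0.776). Among all genes 14.9% were higher and 9.88% lower, and the lists are too short to set their counts apart from these shares. In CX3CR1-GFP against CCR2-RFP cells, 3 of the 10 (Irf8, Ifnar2 and Ifnar1) were called higher and 0 lower, beside 8.96% higher among all genes. Of the 7 peptide route genes, Pdia3 and Calr were called lower there, beside 17.3% of all genes.

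Psmb8 and Psmb9 lie in the MHC region of chromosome 17 beside the peptide transporter genes Tap1 and Tap2. Psmb9 and Tap1 (mm10 chr17:34187553-34197225, plus strand) start head to head, so that the window of Tap1 shares 275 bases with the one printed for Psmb9. Tap1 was at a mean of 1.77 TPM in double-negative, 2.71 TPM in CCR2-RFP and 1.73 TPM in CX3CR1-GFP cells, with 0.42 (adjusted p = 0.257) in CCR2-RFP over double-negative cells. Which strand was counted is not given. Exons of the opposite strand cover 212 bases (5.79%) of Psmb9, from Tap1, 498 bases (14.7%) of Psmb8, from the antisense gene Gm20496, 405 bases (11.8%) of Psmb7, from Nek6, and 114 bases (4.81%) of Psma4, from AY074887, and reads there cannot be assigned to a gene with certainty.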

How the data were processed

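RNA of 9 sorted mouse libraries was deposited by the authors as TPM per gene symbol, made with bcl2fastq 2.18, cutadapt 1.8.3 and Salmon 0.11.3 on mm10, per the submitters' processing notes. Annotation, strand and the step from transcripts to genes: not given in the sources used here. TPM keeps no counts, so precision rests on 3 libraries per population. Groups follow title, source name, cell type and column name; the description field names the other reporter population for 6 samples. The members and lists were chosen with earlier results of these data known.

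A limma 3.58.1 model (R 4.3.3; all 9 libraries, eBayes with intensity trend) was fitted to log2(TPM + 1) of the 10136 genes that reached 1 TPM in 3 or more libraries. P-values were Benjamini-Hochberg adjusted over these genes, and a gene was called below 0.05. The fit was tested on simulated data. Gene pairs were compared with two-sided exact permutation tests over libraries. Coordinates are from GENCODE M21 (mm10), in which all 50 genes were found. Named were all genes by count, the 6 catalytic genes, Psme1, Psme2, up to 6 called genes with the largest change per direction and comparison, and up to 4 called genes per further list; others were picked after their values were seen. Some genes the rule named are left out here.

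The series design states that 3 mice were carried through as 3 replicates, so sort labels were read as animals; the labels do not say whether 2A and 2B share a sort day. Deviations of same-numbered libraries correlated at 0.0315 to 0.205 (9 pairs), and those of different numbers at -0.16 to 0.112. A fit with the sort as a block is given where it changes a call. Alternatives were pseudocounts of 0.1 and 5, no filter, a 5 TPM filter, median-of-ratios and quantile scaling, rescaling without mitochondrial and ribosomal protein genes, no trend, 2 populations only and each library left out; added after seeing the data were rescaling also without Siglece and Rn18s, sort 2A and 2B only, no sort 2A, and Psme2 summed with Psme2b.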

Additional observations from a re-analysis of the deposited data

How the results depend on the processing

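No called gene changed direction under any of 23 alternatives. Of 3149 gene values 198 lost a call and 28 gained one. The 17 genes called higher in CCR2-RFP cells than in double-negative ones became 10 with quantile normalization, 10 rescaled without mitochondrial and ribosomal protein genes, 10 rescaled also without Siglece and Rn18s, 6 with the sort 2A and 2B libraries only, 11 without the 3 sort 2A libraries, and 8 to 20 with each library left out; the 20, without CX3CR1-GFP 2A, are 19 higher and 1, Psme2b, lower. For CX3CR1-GFP against CCR2-RFP the 24 became 14, 10, 14, 12 and 18 in the same order, and 17 to 24 with each library left out. For CX3CR1-GFP against double-negative cells 0 were called in each. With the replicate block the counts were 17, 0 and 21, and it changed no call beside those given in the report. Called in every alternative were Psma3, Psma4, Psmd14 and Psmd8 in the first comparison, and Psma3, Psma4, Psma7, Psmb1, Psmb3, Psmb8 and Psmd14 in the last (Psme2 too, where it was not summed with Psme2b).

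The proteasome median minus that of all genes ranged from 0.36 to 0.55, from -0.24 to -0.03 and from -0.69 to -0.43 in the 3 comparisons. For the ratio of Psmb8 to Psmb5 the exact permutation p was 0.0321 with a pseudocount of 5, 0.0429 to 0.282 with each library left out and 0.25 with the replicate block. For Psmb9 to Psmb6 it was 0.0393 to 0.371 and 0.222, and for Psmb10 to Psmb7 0.371 to 0.964 and 0.417. The cause of these changes was not tested. Without read counts, how far depth limits the low genes is unknown.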

Other observations

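The genes whose log2 levels followed the immunoproteasome genes most closely over the 9 libraries are given as a description, since the libraries share populations and sorts. Among the nearest to Psmb8 were Myl12a, a myosin light chain (Pearson r = 0.986) and 4833439L19Rik (r = 0.984). Psmb10 reached 0.869 with Psmb8 and Psmb9 0.667. Nearest to Psmb9 were Sec22c (r = 0.948), the splicing regulator Ptbp1 (r = 0.945) and Fam188a (r = 0.939), and its neighbour Tap1 reached 0.765. Nearest to Psmb10 were the receptor kinase Grk6 (r = 0.978), Zadh2 (r = 0.959) and Cfdp1 (r = 0.958). Myl12a was at a mean of 32.9 TPM in double-negative, 65.3 TPM in CCR2-RFP and 32.7 TPM in CX3CR1-GFP cells.

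Cell cycle genes were higher in CCR2-RFP cells than in double-negative ones for 4 of the 7 tested (Top2a, Mki67, Ccna2 and Birc5), beside 14.9% of all genes. Levels were low. Top2a and Mki67 averaged 1.71 and 1.62 TPM in double-negative cells, and Ccna2 and Birc5 0.240 and 0.493 TPM. Ccna2 and Birc5 reached 1 TPM only in the CCR2-RFP libraries and CX3CR1-GFP 2B. The cell cycle list summed to 20.9, 29.2 and 36.6 TPM in the CCR2-RFP libraries, 4.69 to 8.26 TPM in the double-negative and 4.50, 7.86 and 23.1 TPM in the CX3CR1-GFP libraries. The part of cell cycle genes in the proteasome results was not tested.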
